A study of Mus musculus with 15 samples.

Results

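The genes described here are the subunits of the transcription factor NF-kB and the inhibitors and nuclear regulators that feed back on it: Nfkb1, Nfkb2, Rel, Rela, Relb, Nfkbia, Nfkbie, Nfkbiz, Bcl3 and Tnfaip3. They were chosen by name, through probe sets annotated with a single gene symbol, and 9 of the 10 had such a probe set, 1 for each gene, out of 22180 genes on the array with one. Nfkb1 was not analysed here. All 9 passed the filter on dim genes, which kept 16055 genes. RNA of mouse myeloid cells was measured on 15 single-colour arrays in 5 groups of 3, all of the C57Bl/6 strain per the labels. MDSC are myeloid-derived suppressor cells, Ly6C+CD11b+ cells grown from bone marrow with G-CSF, GM-CSF and IL-13. The other 4 groups began as spleen cells of mice given G-CSF, depleted of cells with CD4, CD8, Ly6G, B220 or Ter119 on the surface and sorted for CD11b and CD34. RB cells came from C57Bl/6 mice with no deletion named. GFK cells came from mice labelled iNOS knockout. GFE cells were such cells without the knockout, kept in culture with Flt3 ligand and SCF for 3 days per the series' design text. GFW cells, from C57Bl/6 mice with no deletion named, have the same labels as RB and differ from them in the code of the title. Values are log2 RMA signals, and differences are on the log2 scale, first group minus second.

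NF-kB is a family of dimeric transcription factors that drive inflammatory and survival genes in myeloid cells. In a resting cell the dimers are held in the cytoplasm by IkB proteins, which are phosphorylated by the IKK kinases and degraded when a cytokine or a microbial product is sensed. The freed dimers switch on some of their own inhibitors and subunits, so that transcripts of such genes are often read as a trace of recent NF-kB activity. This need not hold for each gene described here. Transcript levels of the genes described say nothing here about where the proteins lie in the cell.

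Array medians lay between 5.52 and 5.72 log2, and no 2 arrays were identical. The signal of Nos2, the gene of iNOS, was 8.84, 8.91 and 8.92 log2 on GFK against 8.09, 8.32 and 8.43 on GFW arrays (0.61, adjusted p = 0.0137), higher where the label names a knockout. The exons that this probe set covers are unknown here, so the label was not checked by it. The sort markers did not all follow the labels: Cd34 averaged 5.92 log2 on RB, 7.27 on GFK, 11.28 on GFE and 7.19 on GFW arrays, and Ly6g, a marker used for depletion, 6.28 on RB, 12.08 on GFK, 4.22 on GFE and 12.19 on GFW arrays. The prefix of the titles is shared by GFK, GFE and GFW and is another for RB and for MDSC, so for any comparison with RB or MDSC the prefix and the group cannot be told apart. The 3 arrays per group limit the precision. Since no label says that the 3 arrays of a group are separate mice, each p reflects only how these samples scatter, and that scatter may be technical.

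Promoter sequences were read from RefSeq (GRCm38.p6) for the 7 members with an entry, over the 250 bases before each start site. No entry was used for Nfkb1, Relb and Nfkbiz. The kB consensus, the family's binding motif, was searched on both strands, and 5 of the 7 genes (71.4%) held at least 1 match, against 8.23% of 27025 genes. Of 22 listed target genes of NF-kB with an entry, 8 (36.4%) held one. A match is a run of letters and not a measured site. The sequences below are those of the 4 genes with matches that were higher in RB than in GFW cells, and of Bcl3, which was lower there and held no match. They are written 5′ to 3′ on the strand of the gene, with matches in capitals. Nfkbia covers chr12:55492648-55492897 (minus strand), Nfkbie chr17:45555450-45555699 (plus), Tnfaip3 chr10:19015411-19015660 (minus), Rel chr11:23770970-23771219 (minus) and Bcl3 chr7:19822756-19823005 (minus).
Nfkbia: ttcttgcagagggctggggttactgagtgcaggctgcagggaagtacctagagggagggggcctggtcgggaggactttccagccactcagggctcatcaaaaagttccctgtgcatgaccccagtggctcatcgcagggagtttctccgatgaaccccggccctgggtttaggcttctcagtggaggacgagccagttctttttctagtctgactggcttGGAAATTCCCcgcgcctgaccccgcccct
Nfkbie: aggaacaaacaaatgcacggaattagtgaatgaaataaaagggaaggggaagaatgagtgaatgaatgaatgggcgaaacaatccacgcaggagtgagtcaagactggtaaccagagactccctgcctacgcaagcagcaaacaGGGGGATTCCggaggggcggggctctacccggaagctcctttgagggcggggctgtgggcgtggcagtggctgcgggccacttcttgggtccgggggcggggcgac
Tnfaip3: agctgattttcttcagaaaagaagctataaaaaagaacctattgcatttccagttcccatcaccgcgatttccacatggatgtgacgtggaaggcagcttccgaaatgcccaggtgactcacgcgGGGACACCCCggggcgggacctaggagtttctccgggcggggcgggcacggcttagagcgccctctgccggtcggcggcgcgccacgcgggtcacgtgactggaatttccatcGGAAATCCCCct
Rel: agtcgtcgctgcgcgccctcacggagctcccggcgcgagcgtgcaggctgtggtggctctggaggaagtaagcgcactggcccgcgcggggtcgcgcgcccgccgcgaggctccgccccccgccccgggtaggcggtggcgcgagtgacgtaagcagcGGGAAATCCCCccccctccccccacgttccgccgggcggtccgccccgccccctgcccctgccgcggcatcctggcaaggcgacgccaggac
Bcl3: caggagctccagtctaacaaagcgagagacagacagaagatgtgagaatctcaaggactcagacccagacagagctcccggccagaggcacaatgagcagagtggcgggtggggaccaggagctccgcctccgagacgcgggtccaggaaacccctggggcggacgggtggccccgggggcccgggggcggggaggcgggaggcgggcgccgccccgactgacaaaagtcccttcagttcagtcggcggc
The match of Nfkbia begins 29 bases before the start site, that of Nfkbie 106 bases, and those of Tnfaip3 125 and 12 bases. In Rel a pair of overlapping matches begins 92 and 91 bases before it. A second start site of Tnfaip3 held no match. Nfkb2 held matches before each of 3 annotated start sites and was not called between RB and GFW cells (limma adjusted p = 0.39). Rela held none and was lower in RB, a call that held in 4 of 12 settings. A link between matches and differences was not tested.

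The 9 genes had the same group at the bottom. MDSC had the lowest mean of all 5 groups for each of the 9, whereas MDSC was the lowest group for 20.1% of all genes kept. RB was the highest group for 4 members (Rel, Nfkbia, Nfkbie and Tnfaip3), GFK for 4 (Nfkb2, Relb, Nfkbiz and Bcl3) and GFW for Rela. The distance between the highest and the lowest group mean ran from 0.87 log2 for Rela to 3.65 for Nfkbiz, against a median of 0.82 over all genes kept. Within a group, the arrays of a member had an SD of at most 0.31 log2.

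**Figure D1:**
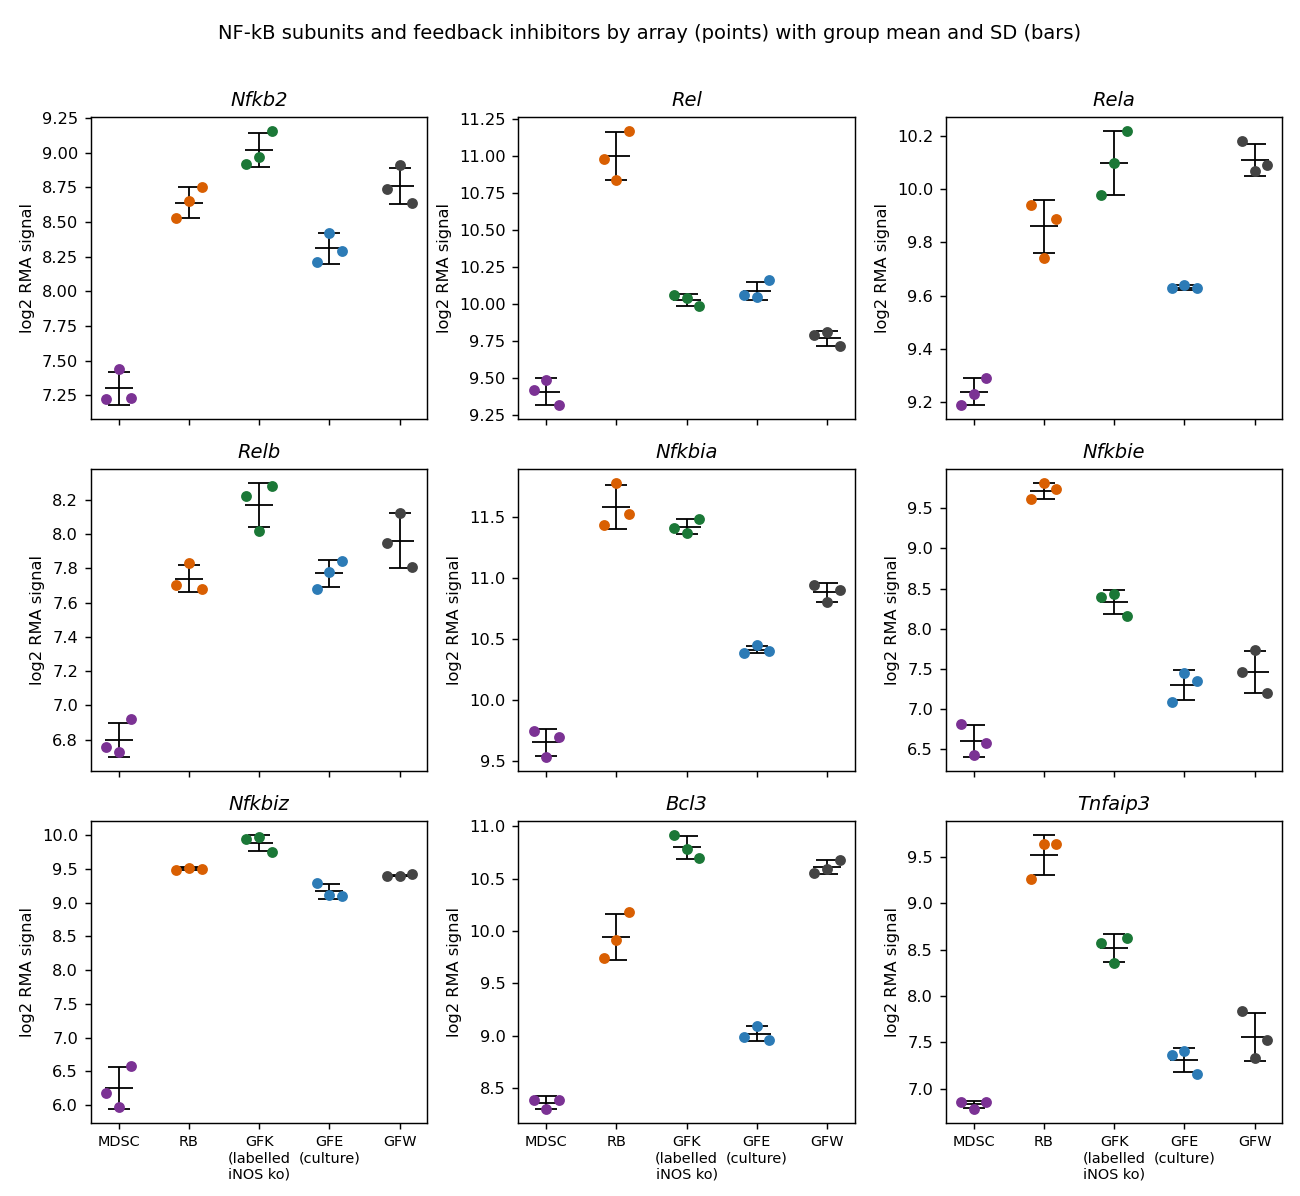
Log2 RMA signal (vertical axis, own range in each panel) of the 9 genes on each array (points, 3 per group) with the group mean and SD (bars). The MDSC arrays lie lowest in every panel, RB arrays are highest for Rel, Nfkbie and Tnfaip3, and the GFK and GFW arrays are highest for Bcl3.

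Of the subunits, Rel encodes c-Rel, a transactivating subunit prominent in blood cells. Its signal was 9.42, 9.49 and 9.32 on MDSC, 10.98, 10.84 and 11.17 on RB, 10.06, 10.04 and 9.99 on GFK, 10.06, 10.05 and 10.16 on GFE and 9.79, 9.81 and 9.72 on GFW arrays. The RB arrays stood above all others and the MDSC arrays below all others. In the order RB, GFE, GFK, GFW, MDSC, the step from RB to GFE (0.90, adjusted p = 1.47e-06) and that from GFW to MDSC (0.37, adjusted p = 0.00597) passed the test, and the steps between GFE, GFK and GFW did not (adjusted p = 0.598 and 0.322).

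Rela encodes p65, the main transactivating subunit of the canonical pathway, and it varied least of the 9 genes. It had 9.19, 9.23 and 9.29 log2 on MDSC, 9.94, 9.74 and 9.89 on RB, 9.98, 10.10 and 10.22 on GFK, 9.63, 9.64 and 9.63 on GFE and 10.18, 10.07 and 10.09 on GFW arrays. The GFK and GFW arrays overlapped, and the MDSC arrays lay apart below. In the order GFW, GFK, RB, GFE, MDSC, the last step alone passed the test (0.39, adjusted p = 0.0046).

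Relb and Nfkb2 encode RelB and the p100 precursor of p52, the dimer of the non-canonical pathway. Relb stood at 6.76, 6.73 and 6.92 log2 on MDSC, 7.70, 7.83 and 7.68 on RB, 8.22, 8.02 and 8.28 on GFK, 7.68, 7.78 and 7.84 on GFE and 7.95, 8.12 and 7.81 on GFW arrays. Among the 4 spleen groups no neighbouring step of Relb passed the test, and the step down to MDSC did (0.94, adjusted p = 3.49e-06). RB and GFK, which are not neighbours in that order, differed for Relb (-0.44, adjusted p = 0.00447). Nfkb2 had 7.22, 7.44 and 7.23 log2 on MDSC, 8.53, 8.65 and 8.75 on RB, 8.92, 8.97 and 9.16 on GFK, 8.21, 8.42 and 8.29 on GFE and 8.74, 8.91 and 8.64 on GFW arrays. For Nfkb2 the order was GFK, GFW, RB, GFE, MDSC, with called steps from RB to GFE (0.33, adjusted p = 0.0227) and from GFE to MDSC (1.01, adjusted p = 3.06e-06).

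Of the inhibitors, Nfkbia encodes IkB-alpha, the IkB protein resynthesised fastest after activation. It had 9.74, 9.53 and 9.69 log2 on MDSC, 11.43, 11.78 and 11.52 on RB, 11.41, 11.37 and 11.48 on GFK, 10.38, 10.45 and 10.40 on GFE and 10.94, 10.80 and 10.90 on GFW arrays. RB and GFK arrays overlapped (adjusted p = 0.249), and each later step of the order GFK, GFW, GFE, MDSC passed the test (0.54, 0.47 and 0.76, adjusted p = 0.0163, 0.00134 and 3.64e-05).

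Nfkbie encodes IkB-epsilon, which restrains dimers of p65 and c-Rel, and Tnfaip3 encodes A20, a ubiquitin-editing enzyme that shuts off signalling above the IKK kinases. Nfkbie had 6.81, 6.43 and 6.57 log2 on MDSC, 9.61, 9.81 and 9.74 on RB, 8.39, 8.43 and 8.16 on GFK, 7.09, 7.45 and 7.35 on GFE and 7.46, 7.73 and 7.20 on GFW arrays. Tnfaip3 had 6.86, 6.78 and 6.85 log2 on MDSC, 9.26, 9.64 and 9.64 on RB, 8.57, 8.35 and 8.63 on GFK, 7.36, 7.41 and 7.16 on GFE and 7.84, 7.33 and 7.52 on GFW arrays. Both genes ordered the groups as RB, GFK, GFW, GFE, MDSC, and for both the RB arrays and the GFK arrays lay apart from all others. The GFW and GFE arrays overlapped for both (adjusted p = 0.332 for Nfkbie and 0.132 for Tnfaip3), and the remaining steps passed the test.

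Nfkbiz and Bcl3 encode nuclear members of the IkB family, IkB-zeta and Bcl-3, which bind p50 or p52 homodimers on DNA and modify transcription there. Nfkbiz had 6.18, 5.97 and 6.58 log2 on MDSC, 9.49, 9.52 and 9.50 on RB, 9.95, 9.97 and 9.75 on GFK, 9.29, 9.12 and 9.10 on GFE and 9.39, 9.40 and 9.42 on GFW arrays. The 4 spleen groups of Nfkbiz lay within 1 log2 of each other, and the GFK arrays lay above the RB arrays (0.39, adjusted p = 0.0236). MDSC arrays were far below (GFE to MDSC 2.93, adjusted p = 4.99e-11). Bcl3 had 8.39, 8.30 and 8.39 log2 on MDSC, 9.74, 9.91 and 10.18 on RB, 10.92, 10.78 and 10.70 on GFK, 8.99, 9.09 and 8.96 on GFE and 10.55, 10.59 and 10.68 on GFW arrays. Unlike Nfkbiz it had spread-out spleen groups: GFK and GFW did not differ beyond their spread (0.19, adjusted p = 0.581), and the steps from GFW to RB, RB to GFE and GFE to MDSC passed (0.67, 0.93 and 0.66, adjusted p of at most 0.000255).

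The arrays labelled iNOS knockout were set against GFW to ask what differs in mobilised cells labelled as lacking iNOS. The feedback inhibitors Tnfaip3, Nfkbie and Nfkbia were higher on them, and no subunit passed the test. In all, 3 of the 9 members were called higher and 0 lower, where 1.18% of all genes were called higher and 0.268% lower, and the median difference of the 9 was 0.26 log2 against -0.01 over all genes. Tnfaip3 averaged 8.52 ± 0.15 on GFK against 7.56 ± 0.26 on GFW arrays (SD, n = 3 each; 0.95, SE 0.14, limma adjusted p = 0.0022), Nfkbie 8.33 ± 0.15 against 7.46 ± 0.26 (0.87, SE 0.15, adjusted p = 0.00569) and Nfkbia 11.42 ± 0.06 against 10.88 ± 0.08 (0.54, SE 0.11, adjusted p = 0.0163). All 3 GFK arrays lay above all 3 GFW arrays for 7 members, where 7.92% of all genes did so: those 3, Nfkbiz (0.49, adjusted p = 0.0903), Rel (0.26, 0.322), Nfkb2 (0.25, 0.415) and Bcl3 (0.19, 0.581). Relb differed by 0.21 (adjusted p = 0.518) and Rela by -0.01 (0.982). With only the 6 arrays compared in the fit, Tnfaip3 alone kept its call (adjusted p = 0.0499), with Nfkbie at 0.0750 and Nfkbia at 0.0949. Leaving out a single array also ended the Nfkbia call in 4 of 6 cases (GFK replicate 1, adjusted p = 0.0511; GFK replicate 3, 0.0725; GFW replicate 2, 0.0699; GFW replicate 3, 0.0537).

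Genes taken as NF-kB targets from general knowledge were read beside them. Of 28 such genes 7 were called higher on the arrays labelled iNOS knockout and 0 lower, with a median of 0.30. Nos2, the gene that the label names, was 1 of these 7 (0.61, adjusted p = 0.0137). The cytokine Tnf had 10.29, 10.32 and 10.54 log2 on GFK against 8.57, 8.28 and 8.68 on GFW arrays (1.88, adjusted p = 1.16e-06). Il1a, for interleukin-1 alpha, differed by 1.36 (adjusted p = 0.0274), with a GFW mean near background. The chemokine Ccl3 differed by 1.15 (adjusted p = 2.5e-05) and the adhesion molecule Icam1 by 0.81 (adjusted p = 0.0233), while Il1b had -0.06 and was not called. Only 2 target genes were called in a fit of the 6 arrays compared, 3 when GFK replicate 3 was left out and 4 when GFW replicate 1 was. The Il1a call was lost in 5 alternative fits (adjusted p up to 0.13) and the Icam1 call in 4 (up to 0.116). The IKK and adaptor list (20 genes measured), the non-canonical list (8), the other brakes (12), the activating receptors (8) and the other IkB proteins (3) had 0 genes called by limma in either direction. At an unadjusted p under 0.05, the IKK and adaptor list had 0 higher and 1 lower, the non-canonical list 1 and 0, the other brakes 3 and 2, the receptors 3 and 0 and the other IkB proteins 1 and 0. The members had 6 higher and 0 lower at that threshold, and the targets 15 and 0, where 6.25% of all genes were higher and 4.93% lower. B cell and plasma cell markers moved with this comparison, with 4 of 7 called higher and a summed signal of 13.26 to 13.31 log2 on GFK against 11.98 to 12.18 on GFW arrays. Macrophage markers did so with 3 of 8 called higher (11.52 to 11.91 against 11.14 to 11.29). No marker of these lists lay near background in either group, and their part in the result was not tested. Of 12 immediate early and dissociation genes 1 was called, Atf3, with sums of 14.55 to 14.57 on GFK and 14.54 to 14.61 on GFW arrays. Of 8 monocyte markers 1 was called higher, and none was called among 8 neutrophil, 8 progenitor, 7 dendritic cell, 6 T cell and NK cell, 4 mast cell and basophil and 3 erythroid markers. At an unadjusted p under 0.05, 6 of 8 macrophage and 5 of 7 B cell and plasma cell markers were higher and 0 lower. Monocyte markers had 1 higher and 1 lower, as did the immediate early and dissociation genes. At that threshold 2 dendritic cell markers were lower and 1 progenitor marker higher. The neutrophil, T cell and NK cell, mast cell and basophil and erythroid lists had 0.

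The RB arrays were set against GFW, which have the same labels. Members moved in opposite directions: Nfkbie, Tnfaip3, Rel and Nfkbia were higher in RB, and Bcl3 and Rela were lower. Of the 9 members 4 were called higher and 2 lower, where 23.9% of all genes were called higher, 26.0% lower and 49.9% in either direction. With each array set to the same median, more genes were higher (4127) than lower (3356). For the other pairs with RB used in the orders above, 48.0% of all genes were called for RB minus GFK and 51.0% for RB minus GFE. Nfkbie averaged 9.72 ± 0.10 on RB against 7.46 ± 0.26 on GFW arrays (4.77-fold, 2.26 log2, SE 0.15, adjusted p = 5.61e-09) and Tnfaip3 9.52 ± 0.22 against 7.56 ± 0.26 (3.87-fold, adjusted p = 1.84e-08). Rel was 2.33-fold higher (adjusted p = 8.89e-08) and Nfkbia 1.62-fold (adjusted p = 6.64e-05). Bcl3 fell by 0.67 log2 (adjusted p = 0.00018), with no overlap between the arrays. Rela fell by 0.26 log2 (adjusted p = 0.0398), a call that held in 4 of 12 settings, with an adjusted p of up to 0.156. Nfkb2 (-0.12), Relb (-0.23) and Nfkbiz (0.10) were not called.

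Other genes of the pathway were mixed in RB as well. Ikbkb, for the IKK-beta kinase that phosphorylates IkB proteins, had 10.29, 10.41 and 10.54 log2 on RB against 8.88, 8.84 and 8.83 on GFW arrays (1.56, adjusted p = 6.28e-09), and Malt1, a protease of the CARD signalling complex, was higher by 1.04. The receptor adaptors Tirap and Myd88 fell by 1.45 and 1.22. In this IKK and adaptor list 7 of 20 were higher and 4 lower (median 0.07). Of the non-canonical list 3 of 8 were higher and 4 lower (median -0.26), with the receptors Cd40 (1.39) and Tnfrsf11a (1.31) and the kinase Map3k14, known as NIK (0.67), higher and the BAFF receptor Tnfrsf13c (-1.11) lower. The activating receptors had 2 higher and 6 lower of 8 (median -0.61): Tlr9 (2.11) and Tnfrsf1b (0.95) rose, and Il1rap (-2.20) and Tlr4 (-1.66) fell. Over 12 settings the Il1rap difference ran from -2.30 to -1.33 and was called in all. Other IkB proteins rose in 2 of 3, Nfkbib by 0.70 and Nfkbid by 0.30, the second call being lost under 8 alternatives. The other brakes had 3 higher and 6 lower of 12 (median -0.30), with Rnf11 at -1.58 and Tnip3 at 1.34 (near background in GFW). Of the targets 6 rose and 15 fell (median -0.38), among them Saa3 (-6.12), Csf1 (-3.01), Nos2 (-2.30) and, upward, Il6 (2.21, near background in GFW). Cell type markers moved with this comparison: 8 of 8 neutrophil markers were lower in RB (summed signal 13.25 to 13.45 log2 on RB against 15.55 to 15.61 on GFW arrays), 8 of 8 monocyte markers higher (14.67 to 14.71 against 12.27 to 12.45) and 5 of 8 progenitor markers lower (9.63 to 9.87, with the lowest GFW array at 11.82), with none near background in either group. B cell and plasma cell markers were lower in 6 of 7 (10.89 to 11.03 against 11.98 to 12.18, with Cd79a, Ms4a1 and Jchain near background in RB). Of the immediate early and dissociation genes 4 were higher, among them the heat shock genes Hspa1b (2.79) and Hspa1a (2.02) and Atf3 (2.36), and 7 lower. The part of these in the members' differences was not tested, and in bulk RNA fewer cells of a type and less RNA per cell cannot be told apart.

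Cells kept for 3 days with Flt3 ligand and SCF (GFE) were set against the uncultured GFW cells. Culture and the mix of cells may differ together here, and in bulk RNA their parts cannot be told apart. Words such as fell and rose compare group means only. Bcl3 moved most of the members, to 9.02 ± 0.07 in GFE against 10.61 ± 0.07 in GFW cells (SD, n = 3 each; -1.59, SE 0.11, adjusted p = 5.05e-09). Rela (-0.48, adjusted p = 0.000487), Nfkbia (-0.47, adjusted p = 0.00134) and Nfkb2 (-0.46, adjusted p = 0.00263) fell too, and Rel rose by 0.32 (adjusted p = 0.0128). So 1 member was higher and 4 lower, where 32.6% of all genes were higher, 32.1% lower and 64.7% called in either direction, and the members' share of calls was not above that of all genes. Tnfaip3 (-0.25), Nfkbiz (-0.23), Relb (-0.20) and Nfkbie (-0.16) were not called; Tnfaip3 passed without GFW replicate 2 (-0.37, adjusted p = 0.0457).

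Elsewhere in the pathway, of the activating receptors 6 of 8 fell and 1 rose (median -1.79). Cd14, the co-receptor for lipopolysaccharide, fell by 4.90 log2, Il1rap by 2.73 and Tlr4 by 2.17, while the interleukin-1 receptor Il1r1 rose by 3.23. The Il1rap difference ran from -2.82 to -1.75 over 12 settings and was called in all. Myd88 had 7.77, 7.79 and 7.64 log2 on GFE against 10.90, 11.08 and 10.78 on GFW arrays (-3.18, adjusted p = 3.39e-12), and 10 of the 20 IKK and adaptor genes fell and 4 rose, with Tirap (-1.97), Card9 (-1.46) and Irak2 (-1.40) next in size. Of the other brakes 4 rose and 7 fell of 12 (median -0.35). Tnip3, a partner of A20, rose by 4.39, with 9.64, 9.45 and 9.53 log2 on GFE against 5.08, 5.34 and 5.04 on GFW arrays, near background. Tnip1 rose by 1.20, and Rnf11 and Tnip2 fell by 1.36 and 0.94. In the non-canonical list 3 of 8 fell (Ltbr -1.12, Birc3 -1.01, Map3k14 -0.95) and 0 rose, and of the other IkB proteins Nfkbid (-0.97) and Nfkbib (-0.30) fell. Of the targets 7 rose and 16 fell (median -0.75), with Saa3 (-7.29), Cxcl2 (-4.73), Nlrp3 (-4.54, near background in GFE) and Il1b (-3.56) lowest. Neutrophil markers were lower in 8 of 8 (10.47 to 10.58 on GFE against 15.55 to 15.61 on GFW arrays, with Ly6g and Retnlg near background in GFE), and immediate early and dissociation genes in 11 of 12 (11.65 to 11.79 against 14.54 to 14.61). Progenitor markers had 4 of 8 higher, among them Cd34 (4.10) and Myb (3.67), and 3 lower, Elane (-1.40), Prtn3 (-0.88) and Kit (-0.58). The sums over the progenitor markers were 12.86 to 12.95 on GFE arrays, above all GFW arrays, the lowest of which was at 11.82. Monocyte markers had 2 of 8 higher and 5 lower (10.51 to 10.66 on GFE against 12.27 to 12.45 on GFW arrays, with Vcan near background in GFE). Macrophage markers had 1 of 8 higher and 7 lower (9.45 to 9.64 on GFE against 11.14 to 11.29 on GFW arrays, with Cd5l and Mrc1 near background in GFE). The part of these lists in the members' differences was not tested.

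The suppressor cells grown from marrow were set against the spleen groups RB, GFW and GFE. All 9 members were lower in MDSC than in RB, than in GFW and than in GFE cells, without overlap of arrays. These comparisons share the MDSC arrays and are not independent. The shares of all genes called lower were 19.5%, 29.4% and 17.4%, and those lower without overlap 23.2%, 36.8% and 26.4%. Of the 16055 genes kept, 4066 were called higher in MDSC than in RB, 4791 than in GFW and 2478 than in GFE cells. Whether the counts of the pathway and marker lists given below depart from those of all genes was not tested. The median difference of the 9 was -1.59 log2 against RB, -1.16 against GFW and -0.70 against GFE, where the medians of all genes were 0.03, -0.11 and 0.00. Nfkbiz differed most: it averaged 6.25 ± 0.31 in MDSC against 9.51 ± 0.02 in RB (9.58-fold lower), 9.40 ± 0.01 in GFW (8.93-fold lower) and 9.17 ± 0.11 in GFE cells (7.60-fold lower). Against RB, Nfkbie was 8.67-fold, Tnfaip3 6.42-fold, Nfkbia 3.79-fold, Rel 3.00-fold, Bcl3 2.99-fold, Nfkb2 2.53-fold, Relb 1.91-fold and Rela 1.54-fold lower, with adjusted p of at most 6.72e-05. Against GFW the next in size were Bcl3 (4.75-fold) and Nfkb2 (2.76-fold), and the smallest Rel (1.29-fold, adjusted p = 0.00597). The Rel call against GFW was lost with each array set to the same median (-0.24, adjusted p = 0.0561). Against GFE, Nfkb2 (2.01-fold) and Relb (1.95-fold) followed Nfkbiz, and Tnfaip3 was nearest the threshold (1.39-fold, adjusted p = 0.0153), its call being lost without MDSC replicate 2 or GFE replicate 1 or 2 (adjusted p = 0.0519, 0.0528 and 0.0634).

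**Figure D2:**
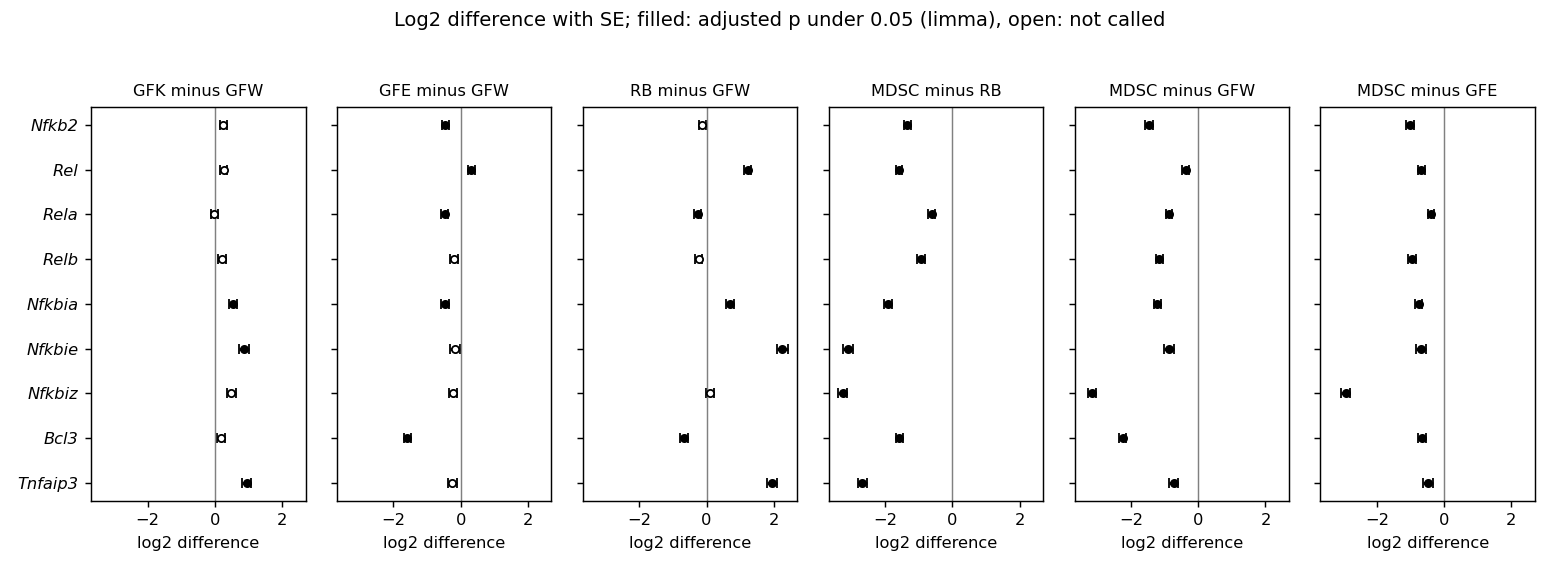
Log2 difference (horizontal axis) of each of the 9 genes in 6 comparisons, first group minus second, with limma's SE as bars; filled points passed an adjusted p under 0.05. All points of the 3 MDSC comparisons lie left of 0, those of GFK minus GFW lie near 0 or to the right, and RB minus GFW has points on both sides.

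The kinase gene Ikbkb had 8.36, 8.11 and 8.18 log2 on MDSC against 10.29, 10.41 and 10.54 on RB arrays (-2.20, adjusted p = 8.07e-11), and 10 of the 20 IKK and adaptor genes were lower than in RB and 0 higher (median -0.36), with Traf5 (-1.13), Tab2 (-1.07) and Rnf31 (-0.86) among them. Against GFW 4 were higher and 9 lower (Myd88 -1.99, Rnf31 -1.74, Tirap -1.36, Bcl10 -1.19) and against GFE 6 higher and 5 lower (Malt1 1.67, Card9 1.38, Myd88 1.19, Irak1 -0.78). In the non-canonical list Birc3, the cellular inhibitor of apoptosis cIAP2, had 7.30, 7.57 and 7.56 log2 on MDSC against 9.50, 9.61 and 9.54 on RB arrays (-2.08), and it was also lower than in GFW (-2.35) and GFE (-1.35). Map3k14 was lower than in RB (-1.90) and GFW (-1.23). That list had 5 of 8 lower and 0 higher against RB, 6 and 0 against GFW, and 3 lower and 1 higher against GFE. Of the activating receptors 2 were higher and 4 lower than in RB, 0 and 7 than in GFW, and 5 and 2 than in GFE, where Il1r1 (-3.50) was lower and Tlr4 (1.74) and Cd14 (1.36) higher.

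Of the 12 other brakes 2 were higher and 4 lower in MDSC than in RB (Itch -1.43, Zc3h12a -1.29, Otud7b 1.01), against GFW 2 and 8 (Tnip3 1.90, Rnf11 -1.38, Irak3 -1.13) and against GFE 1 and 5 (Tnip3 -2.49, Tnip1 -1.83, Irak3 -1.68). The other IkB proteins Nfkbid and Nfkbib were lower than in RB (-1.14 and -0.87), Nfkbid was lower than in GFW (-0.84), and neither was called against GFE. The targets had 9 higher and 16 lower of 28 against RB, 6 and 16 against GFW and 11 and 10 against GFE. Il1b, for interleukin-1 beta, had 5.29, 6.06 and 6.11 log2 on MDSC against 10.89, 10.89 and 11.02 on RB, 9.41, 9.38 and 9.38 on GFE and 12.92, 12.97 and 12.96 on GFW arrays. The MDSC arrays were lowest for it. Tnf had 9.91, 9.94 and 10.21 log2 on MDSC against 8.65, 8.80 and 8.61 on RB arrays, and it was higher in MDSC (1.34, adjusted p = 3.61e-07). Tnf was also higher in MDSC than in GFW (1.51, adjusted p = 5.25e-08) and in GFE cells (0.60, adjusted p = 0.00166). Immediate early and dissociation genes were lower in MDSC than in RB in 12 of 12 (summed signal 12.06 to 12.17 log2 against 14.20 to 14.45) and than in GFW in 11 of 12 (against 14.54 to 14.61). Against GFE 5 were higher and 3 lower, with sums of 12.06 to 12.17 on MDSC against 11.65 to 11.79 on GFE arrays. Monocyte markers were lower than in RB in 6 of 8 (13.06 to 13.15 against 14.67 to 14.71), and neutrophil markers lower than in GFW in 7 of 8 (13.95 to 13.98 against 15.55 to 15.61, Retnlg near background in MDSC). B cell and plasma cell markers were lower than in GFW in 7 of 7 (Ms4a1 and Jchain near background in MDSC). T cell and NK cell markers had 5 of 6 lower than in GFW and 1 higher. Dendritic cell markers had 5 of 7 lower than in GFW and 1 higher. Mast cell and basophil markers had 2 of 4 higher than in GFW, and erythroid markers 2 of 3 lower. Monocyte markers had 3 of 8 higher than in GFW and 2 lower, with sums of 13.06 to 13.15 on MDSC against 12.27 to 12.45 on GFW arrays. Progenitor and granule markers were higher than in RB in 7 of 8 (12.88 to 12.99 on MDSC against 9.63 to 9.87 on RB arrays), among them Mpo (4.08), Kit (3.44) and Myb (3.38), with Flt3 lower (-1.69). In the comparison with GFW 4 of these 8 were higher and 3 lower. Against GFE 3 of the 8 were higher, among them Mpo (3.91), and 5 lower, among them Cd34 (-4.41) and Flt3 (-3.66), with sums of 12.88 to 12.99 on MDSC against 12.86 to 12.95 on GFE arrays. Neutrophil markers were higher than in GFE in 6 of 8 and lower in 1 (13.95 to 13.98 on MDSC against 10.47 to 10.58 on GFE arrays), and monocyte markers higher in 6 of 8 and lower in 2 (13.06 to 13.15 on MDSC against 10.51 to 10.66 on GFE arrays). Macrophage markers had 1 of 8 higher and 6 lower than in RB, and the same counts against GFW. The higher one was Mrc1 in both (4.38 and 3.6). The summed signal was nevertheless higher on MDSC (11.73 to 11.78) than on RB (11.41 to 11.66) and GFW arrays (11.14 to 11.29). Cd5l was near background in MDSC and RB. Against GFE 3 macrophage markers were higher, among them Mrc1 (6.15, near background in GFE), and 1 was lower. The part of these markers in the members' differences was not tested.

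**Figure D3:**
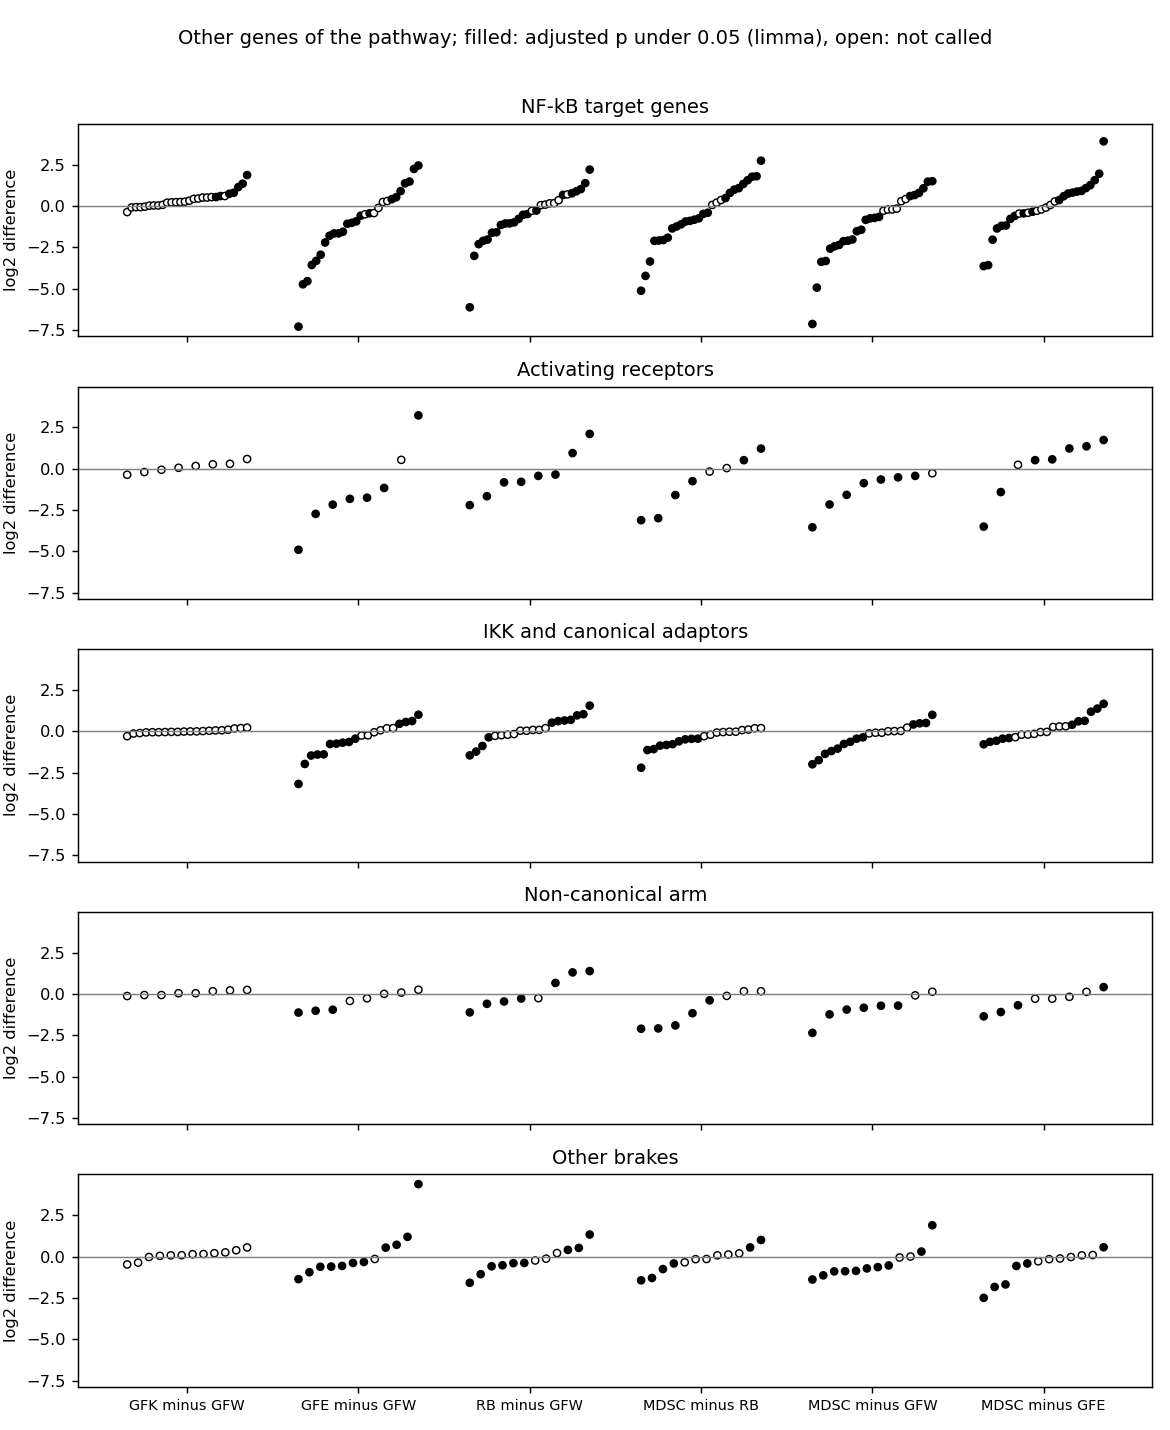
Log2 difference (vertical axis) of the genes of 5 pathway lists in the 6 comparisons (horizontal axis, first group minus second), sorted by size within each comparison; filled points passed an adjusted p under 0.05. In GFK minus GFW the filled points are 7 target genes, all above 0, and the other comparisons have filled points on both sides of 0 in the target list.

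Over the 15 arrays the signals of the members correlated with Pearson's r of 0.32 (Rel with Bcl3) to 0.97 (Nfkbie with Tnfaip3), with a median of 0.82 over 36 pairs. These points fall into 5 groups, so r follows the group means and the low MDSC arrays, and it is given as a description. The 3 most alike genes of Nfkb2 were Oas3 (0.983), Birc3 (0.982) and Parp9 (0.979), and those of Relb were Arrdc3, Ddx58 and Ntng2 (0.965 to 0.969). Rel was most like Grk3, Rassf4 and Atf6 (0.964 to 0.968), and Rela like Fbxl20, Ulk1 and Il1b (0.980 to 0.983). For Nfkbia they were Ubl7, Ptk2b and Parp14 (0.965 to 0.974). Nfkbie and Tnfaip3 shared Filip1l and Ptprj and named each other (0.972). Nfkbiz was most like Ly6e, Nupr1 and Rtp4 (0.981 to 0.985), and Bcl3 like Pnrc1, Marcks and Smox (0.985 to 0.988).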

How the data were processed

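Total RNA of 15 samples was hybridised to single-colour Affymetrix arrays, 1 array per sample, per the labels. The authors made the deposited log2 values with oligo and RMA, per the submitters' processing notes; RMA adjusts for background, brings arrays to a common distribution and gives a value per probe set, so levels are relative. Tool versions and the genome build were not given in the sources used here. Values ran from 2.21 to 14.07 over 41345 probe sets, and 23521 had 1 gene symbol in the platform annotation, 1814 several and 16010 none. For a gene with several probe sets, that with the highest mean was taken. Genes stayed in where 3 or more arrays had them above that array's 40th percentile over all probe sets (between 5.05 and 5.25), and a group mean under that percentile is called near background.

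A single limma model (version 3.58.1, R 4.3.3) covered the 15 arrays, with group means as coefficients and 10 residual plus 5.48 prior degrees of freedom, with Benjamini-Hochberg adjustment over the 16055 genes and calls at an adjusted p under 0.05, 2-sided. Tests on simulated data recovered 94% of 200 genes moved by 1 log2 for GFK minus GFW, with 13 false calls. The simulated noise was normal, with the spread of the same fit in every group, and all groups had a common mean before the move. That setting matches the model, so the figures do not describe groups of unequal spread. Every member differed by less than 1 log2 in that comparison, so the 94% does not describe the members. Tables and figures used Python 3.11.15, pandas 2.3.3 and matplotlib 3.10.9. The members, the 6 pathway lists, the 10 marker lists, the comparisons and their alternatives were chosen with earlier results of these data known. The named genes are the members, Nos2, up to 4 called genes with the largest difference per list and comparison, list genes given with their value, the 3 genes most alike each member (without gene models and immunoglobulin segments), and markers that moved with a member. Comparisons share arrays and are not independent. The lists overlap too: Birc3 and Cd40 are in both the non-canonical and the target list, and Flt3 in both the progenitor and the dendritic cell list. Their calls are counted in each list.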

Additional observations from a re-analysis of the deposited data

How the results depend on the processing

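Of 594 values for the members under alternatives, 572 kept their direction and their side of the threshold. The alternatives were each array minus its median, no filter, the mean of all probe sets of a gene, a replicate block, only the 6 arrays compared, and each array left out; those for the order of the groups and for the pathway lists were chosen after seeing the data. For GFK minus GFW 1 member was called with only the 6 arrays compared, against 3; that fit has fewer samples. Rela, with no call, turned in direction there with each array minus its median (0.005), without GFK replicate 1 (0.048) and without GFW replicate 1 (0.021), and ran from -0.073 to 0.048 with single arrays left out. With single arrays left out the members called numbered 2 to 3 for GFK minus GFW, 5 to 6 for GFE minus GFW and for RB minus GFW, 9 for MDSC minus RB and minus GFW, and 8 to 9 for MDSC minus GFE. Of 36 neighbouring pairs in the order of group means, 20 were called, and 18 to 21 with an array left out. Of all genes, 48.0% were called for RB minus GFK, 49.9% for RB minus GFW, 51.0% for RB minus GFE and 64.7% for GFE minus GFW. For GFK minus GFW 1.18% were called higher and 0.268% lower. A share of all genes over the same mix of pairs was not computed, so the 20 is only a description. Arrays of the same number share only a number: their deviations from the group means correlated by -0.134 to 0.098 over 30 pairs. The replicate block ended the Rela call of RB minus GFW (-0.26, adjusted p = 0.0528) and that of Nfkbid in the same comparison (0.0565), and no other of the members' calls. The array median as scale moved the share of higher among all called genes for GFE minus GFW (5832 higher and 3430 lower, against 5238 and 5155) and MDSC minus GFW (5325 and 3203, against 4791 and 4716). It turned the balance for RB minus GFW (4127 higher and 3356 lower, against 3835 and 4173) and widened it for MDSC minus RB (4521 and 2663, against 4066 and 3138). The median of all genes was then 0.03 against -0.10 log2 for GFE minus GFW and 0.01 against -0.11 for MDSC minus GFW.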
